A study of Mus musculus with 17 samples.

Results

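Respiratory complex I is the NADH dehydrogenase of the mitochondrial inner membrane, and 38 of the 20572 genes in the count tables carry the symbol of one of its nuclear-encoded subunits. They were taken by symbol, as every gene named Ndufa, Ndufb, Ndufc, Ndufs, Ndufv or Ndufab, with the Ndufaf assembly factors left out. The cells were a C57BL/6 mouse keratinocyte culture from newborn skin that had become immortal on its own during passage on mitomycin-treated NIH-3T3 J2 feeder cells, a fibroblast line, and was then grown on uncoated dishes. In the tested libraries a lentiviral shRNA against Msi2 (Musashi-2, an RNA-binding protein that binds sites in 3' untranslated regions) had been delivered, and in the others a scrambled shRNA, both followed by selection in 2 ug/ml puromycin for 2 days and expansion. Each shRNA had 3 RNA-seq libraries from poly(A) RNA and 3 libraries of ribosome footprints, the RNA fragments that ribosomes protect, from cells treated with cycloheximide. A further 5 HITS-CLIP libraries, from cells given neither shRNA, held RNA crosslinked to Msi2 with UVC at 200 mJ/cm2. The RNA was digested with undiluted RNase or with RNase diluted 1 in 20 (2 libraries), 1 in 50 or 1 in 75. The labels of the 2 libraries at 1 in 20 differ, Low MW in 1 and Hi MW in the other. The labels do not say whether replicates were separate infections or cultures, so every p-value below measures the spread between libraries, which may be technical.

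Complex I takes electrons from NADH, passes them along a flavin and a chain of iron-sulfur clusters in a matrix arm to ubiquinone, and uses the energy to pump protons through a membrane arm. The core subunits that carry out electron transfer are nuclear genes, the proton pumps are encoded by the mitochondrial genome, and the accessory subunits, all nuclear, surround and stabilize the core. Because the arms are built as modules that join during assembly, most subunits are needed in fixed proportion. In epidermis, mitochondrial respiration and the reactive oxygen it yields take part in keratinocyte differentiation. By role, 7 of the 38 genes encode core subunits, 9 encode accessory subunits of the matrix arm, 19 encode accessory subunits of the membrane arm, and Ndufab1, the mitochondrial acyl carrier protein, is bound in both arms. Ndufa4 and Ndufa4l2 keep complex I names, although Ndufa4 protein is assigned today to cytochrome c oxidase. The genes lie on 15 chromosomes in RefSeq's GRCm38.p6 annotation, with a median span of 7839 bases, between 2256 bases for Ndufa2 and 100300 bases for Ndufs4. None of the 13 protein-coding genes of the mitochondrial genome is among the rows analysed here.

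Gene counts summed to 9221566 to 26785876 per knockdown RNA library and 11291571 to 24931967 per scrambled RNA library, and to 512256 to 2069440 per knockdown footprint library and 702602 to 2959625 per scrambled footprint library. Msi2 footprints were 4.53, 0 and 5.12 CPM (counts scaled to library size) in the knockdown libraries, against 17.1, 16.8 and 18.3 CPM in the scrambled libraries, and fell by 2.08 ± 0.41 on the log2 scale (SE, adjusted p = 0.000285, edgeR). Msi2 RNA was 6.55, 6.41 and 5.11 CPM in knockdown and 6.51, 6.64 and 8.82 CPM in scrambled libraries, which overlap, and did not pass the test (-0.29 ± 0.21, adjusted p = 0.283), so the check of the labels rests on the footprints. Summed over 10 markers, keratinocyte RNA was 13300 to 15000 CPM in knockdown and 16900 to 20700 CPM in scrambled libraries. Of these markers 6 fell in RNA (edgeR), Krt15 (-3.41), Perp (-0.72), Sfn (-0.71), Krt5 (-0.62), Krt14 (-0.39) and Cdh1 (-0.32), and the integrins Itgb4 (0.57) and Itga6 (0.55) rose, and their part in the results was not tested. Of 11 fibroblast markers, 6 were at 0 in every RNA library (Col1a2, Col3a1, Dcn, Lum, Pdgfrb and Thy1), and the whole list summed to 18.7 to 22 CPM in knockdown and 15.3 to 18.1 CPM in scrambled libraries. In footprints, 3 of the 11 were at 0 in every library (Col3a1, Dcn and Lum). The list's footprints summed to 56.2 to 67.5 CPM in knockdown and 47 to 64.1 CPM in scrambled libraries. RNA sums of 6 melanocyte markers were 1.73 to 3.12 CPM in knockdown and 1.03 to 2.01 CPM in scrambled libraries, of 6 immune markers 8.3 to 13.4 CPM in knockdown and 16 to 18.6 CPM in scrambled libraries, and of 5 endothelial and muscle markers 3.36 to 5.3 CPM in knockdown and 1.49 to 2.57 CPM in scrambled libraries. The part of these differences in the results was not tested.

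RNA of complex I subunits was lower in the knockdown across the complex. Of 37 subunit genes with enough counts to test, 34 fell and 0 rose once p-values from edgeR's quasi-likelihood test had been adjusted over all 11117 genes tested, with a threshold of 0.05. Among all genes tested, 21.7% fell and 22.0% rose. All 37 had a log2 fold change, knockdown over scrambled, below 0, as did 49.7% of all genes. The subunits' median was -0.62, with a range of -0.97 to -0.09, and the median of all genes was 0.00405. In 35 of the 37 genes every knockdown library lay below every scrambled library, as it did for 26.2% of all genes. In bulk RNA, fewer cells that express a gene and less RNA per cell cannot be told apart.

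The 38 genes together took 0.4323%, 0.3843% and 0.4057% of gene counts in the 3 knockdown RNA libraries, against 0.5951%, 0.6183% and 0.5291% in the scrambled libraries. The widest 95% exact binomial interval was 0.4281% to 0.4365% in the knockdown group (replicate 1) and 0.5248% to 0.5333% in the scrambled group (replicate 3), and these cover counting error only. The lowest scrambled library thus stood above the highest knockdown library. Scrambled replicate 3 was nearest to the knockdown: 36 of 37 subunit genes lay below the scrambled mean in it, with a median log2 difference of -0.22, while scrambled replicates 1 and 2 had medians of 0.03 and 0.19. Knockdown replicates 1, 2 and 3 had medians of -0.50, -0.69 and -0.57, with all 37 genes below the scrambled mean in each. Reads aligned to several places were 19.8%, 24.5% and 21.2% of the knockdown RNA libraries and 13.4%, 14.9% and 17.4% of the scrambled RNA libraries, so the scrambled library with the lowest subunit level also had the highest such share of its group, and the part of this in the result was not tested.

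**Figure D1:**
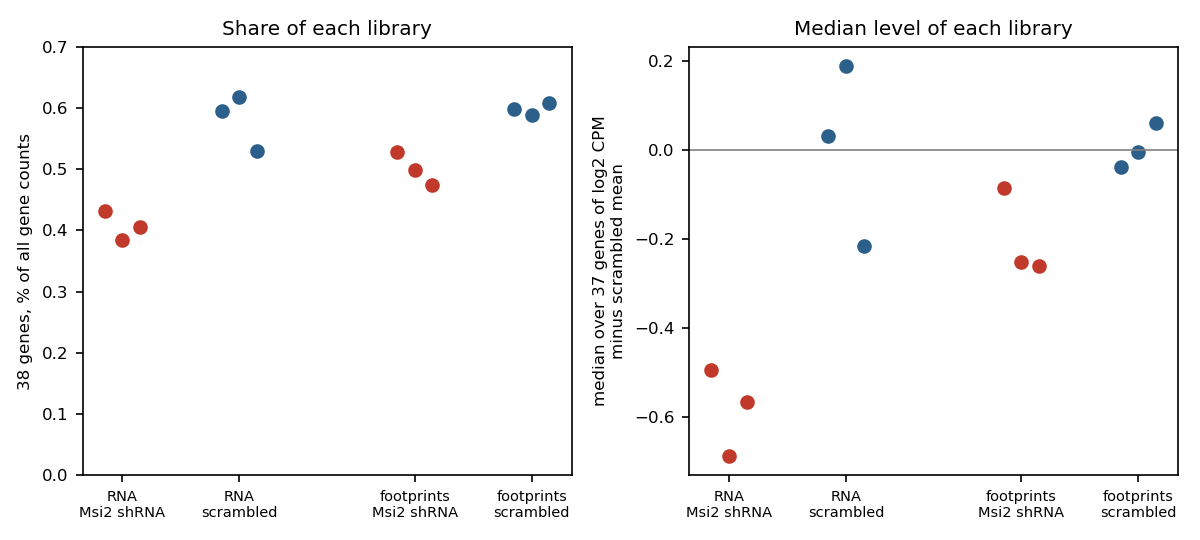
Level of the complex I genes in each library. Left, the 38 genes' share of all gene counts (percent), and right, the median over 37 genes of log2 CPM minus the gene's scrambled mean, each point 1 library, red for Msi2 shRNA and blue for scrambled shRNA. Knockdown RNA libraries reach at most 0.4323% and scrambled RNA libraries at least 0.5291%, and in footprints knockdown libraries reach at most 0.5281% and scrambled libraries at least 0.5892%.

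Among the 7 core subunits, 6 fell in RNA, with a median of -0.68 over all 7. Ndufv1 (chr19:4007499-4012755), which binds the flavin that accepts electrons from NADH, had 122.6, 126.3 and 129.3 CPM in knockdown libraries, against 229, 225.6 and 190.7 CPM in scrambled libraries. It averaged 126.1 ± 3.34 CPM in knockdown and 215.1 ± 21.2 CPM in scrambled libraries (SD, n = 3 each), a fall by 0.77 ± 0.11 on the log2 scale (SE, adjusted p = 5.82e-05, edgeR). The knockdown values are close together and well below the scrambled ones. Ndufs7 (chr10:80249105-80256794), an iron-sulfur subunit next to the ubiquinone site, had 80.13, 74.5 and 82.09 CPM in knockdown and 140.9, 152.7 and 114.3 CPM in scrambled libraries, and fell by 0.79 ± 0.12 (adjusted p = 8.01e-05). Ndufs3 (chr2:90894627-90904721), a core subunit of the matrix arm, had 120.6, 98.62 and 115.9 CPM in knockdown and 188.3, 201.1 and 163.7 CPM in scrambled libraries, and fell by 0.72 ± 0.12 (adjusted p = 0.000159). For both genes too the libraries of the 2 shRNAs did not overlap. The ferredoxin-like Ndufs8 (chr19:3908863-3912774) had 88.55, 84.04 and 81.98 CPM in knockdown and 137.2, 150.2 and 118.8 CPM in scrambled libraries, and fell by 0.68 ± 0.11 (adjusted p = 0.00018). The iron-sulfur subunit Ndufv2 (chr17:66078795-66101559) had 139.6, 125.2 and 138.4 CPM in knockdown and 199.2, 221.4 and 181.4 CPM in scrambled libraries, and fell by 0.58 ± 0.11 (adjusted p = 0.000697). These genes thus sat within a narrow band of fold changes, and none of their libraries overlapped between the shRNAs.

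Ndufs1 (chr1:63143592-63176822), which carries several of the iron-sulfur clusters, was the core subunit that did not pass the test. Its RNA was 82.94, 85.64 and 88.44 CPM in knockdown libraries, against 93.35, 89.12 and 91.89 CPM in scrambled libraries. The groups did not overlap, but the log2 fold change was -0.09 ± 0.10 (adjusted p = 0.48, edgeR), the smallest in size of the 37 genes. Set beside another subunit of the electron path, Ndufs1 averaged 85.67 CPM in knockdown and 91.45 CPM in scrambled libraries, a fold of 0.938, and Ndufv1 averaged 126.1 CPM in knockdown and 215.1 CPM in scrambled libraries, a fold of 0.586. The difference between the folds was not tested.

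**Figure D2:**
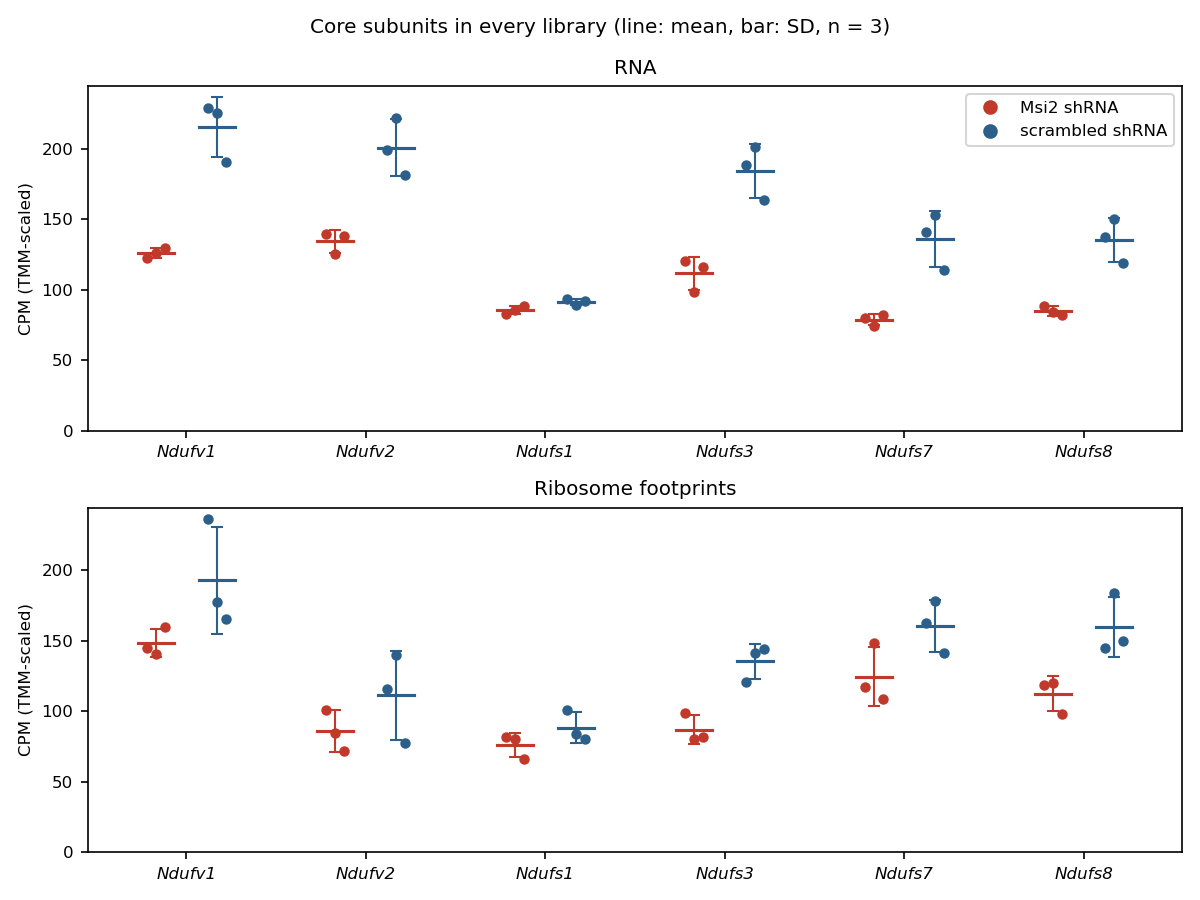
Core subunits described in the text (6 genes) in every library, in CPM, RNA above and footprints below, red for Msi2 shRNA (left of each pair) and blue for scrambled shRNA, with each library as a point, the mean as a line and the SD as a bar (n = 3). In RNA, all 6 genes have every knockdown library below every scrambled library, by the least for Ndufs1, and in footprints this holds for Ndufv1, Ndufs3 and Ndufs8.

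Of the 9 accessory subunits of the matrix arm, 8 fell in RNA, with a median of -0.61 over the 9. Ndufa6, a LYR-motif protein that docks the acyl carrier protein, fell the most, by 0.70 ± 0.11 on the log2 scale to 76.99 ± 5.6 CPM in knockdown libraries, against 124.9 ± 13.5 CPM in scrambled libraries (SD, n = 3 each, adjusted p = 0.000142, edgeR). Ndufv3 (-0.67), Ndufa2 (-0.63), the zinc-binding Ndufs6 (-0.61), Ndufa9 (-0.61), which lies near the ubiquinone site, and Ndufs4 (-0.60), whose loss in mice gives a Leigh-like encephalopathy, all fell by similar amounts. Ndufa12 (-0.35, adjusted p = 0.0331) and Ndufa7 (-0.35, adjusted p = 0.0278) fell by less and stood nearer to the threshold. Ndufa5 (chr6:24518662-24527690) had 63.3, 50.87 and 60.77 CPM in knockdown and 70.9, 90.12 and 52.07 CPM in scrambled libraries. Its libraries overlapped, since scrambled replicate 3 had less than 2 of the knockdown libraries, and it did not pass the test (-0.29 ± 0.16, adjusted p = 0.157).

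Of the 19 accessory subunits of the membrane arm, 18 fell in RNA, with a median of -0.60 over the 19, and this group held the 3 largest falls of all subunits. Ndufa13 (chr8:69894163-69902558), also known as GRIM-19, had 121.3, 108.6 and 122.7 CPM in knockdown libraries, against 253.5, 238.7 and 199.2 CPM in scrambled libraries, and fell by 0.97 ± 0.12 on the log2 scale (adjusted p = 1.3e-05, edgeR), which is a fold of 0.51. Ndufb10 (chr17:24722060-24724423), which faces the intermembrane space, had 69.33, 64.25 and 75.97 CPM in knockdown and 120.2, 147.8 and 107.7 CPM in scrambled libraries, and fell by 0.84 ± 0.13 (adjusted p = 6.79e-05). Ndufs5 (chr4:123712710-123718186), likewise on the intermembrane side, had 22.45, 17.54 and 23.01 CPM in knockdown and 43.37, 42.4 and 26.03 CPM in scrambled libraries, and fell by 0.83 ± 0.18 (adjusted p = 0.00123). For Ndufs5, scrambled replicate 3 lay much nearer to the knockdown libraries than to the other scrambled ones. Ndufb6 (-0.77), Ndufa8 (-0.75) and the LYR-motif subunit Ndufb9 (-0.70) came next. Ndufa3 (chr7:3617347-3620165) did not pass the test, with 124, 117.6 and 125.6 CPM in knockdown and 129.4, 163.4 and 118.9 CPM in scrambled libraries, which overlap (-0.17 ± 0.12, adjusted p = 0.283). Ndufc1 had the smallest fall to pass it (-0.33 ± 0.12, adjusted p = 0.0421).

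Ndufab1, which is also a cofactor carrier of mitochondrial fatty acid synthesis, fell by 0.70 ± 0.12 on the log2 scale, to 104.2 ± 6.03 CPM in knockdown, against 168.8 ± 22.9 CPM in scrambled libraries (SD, n = 3 each, adjusted p = 0.000224, edgeR). Ndufa4 fell by 0.65 ± 0.15, to 173.9 ± 16.3 CPM in knockdown, against 273.4 ± 67.1 CPM in scrambled libraries (adjusted p = 0.00227). Ndufa4l2, a paralog known as a hypoxia-induced gene, had too few counts to be tested. It had 0 RNA counts in each knockdown library and 3, 10 and 6 counts in the scrambled libraries. With the knockdown group set to a floor of 3 counts over the group, it was 5.43-fold lower in knockdown. This value makes no allowance for counting error in the scrambled libraries or for spread between libraries. Its footprints were 1 count in the knockdown group and 5 counts in the scrambled group, a ratio of 0.327 with a 95% counting interval of 0.00692 to 2.93.

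Calls of 3 of the smaller falls each rested on single RNA libraries. Without any 1 of the 6 RNA libraries other than scrambled replicate 3, Ndufa12, Ndufa7 and Ndufc1 were no longer called, with adjusted p up to 0.131, 0.109 and 0.154 (edgeR). The call of Ndufb8 was lost without knockdown replicate 2 (adjusted p = 0.0734) and that of Ndufb11 without knockdown replicate 1 (adjusted p = 0.0793). Ndufa5 was called without scrambled replicate 3 (adjusted p = 0.00393). RefSeq also lists Ndufb4b, Ndufb4c and the pseudogenes or copies Ndufa11b, Ndufa12-ps, Ndufab1-ps, Ndufs5-ps and Ndufs6b, which are not among the rows analysed here, nor is the protein-coding gene Ndufb1, so the values of Ndufb4, Ndufa11, Ndufa12, Ndufab1, Ndufs5 and Ndufs6 are uncertain where reads could be shared. Over the 31 other tested genes, 28 fell, with a median of -0.63.

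Footprints of the complex I genes had smaller log2 fold changes than their RNA. By the same test (edgeR), 2 of 37 genes fell (5.41%) and 0 rose, where 7.38% of all 8969 genes tested fell and 8.76% rose. At an unadjusted p under 0.05 there were 10 of the 37 genes, against 2527 of the 8969. The median log2 fold change was -0.18, with a range of -0.60 to 0.30. A log2 fold change below 0 was found for 31 of the 37 genes, against 51.1% of all genes, and in 9 genes every knockdown library lay below every scrambled library, against 15.4% of all genes. With 1 library left out, 28 to 33 genes lay below 0, and 10 of the 37 turned sign in at least 1 such fit. The genes' summed share of footprint counts was 0.5281%, 0.499% and 0.4741% in knockdown libraries and 0.5983%, 0.5892% and 0.609% in scrambled libraries, again without overlap. Depth was far lower than in RNA: the lowest count of any of the 37 genes in a library was 14 in the knockdown and 44 in the scrambled group. Without knockdown replicate 1, the deepest of its group, the median was -0.29.

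Both genes that fell in footprints, a share (5.41%) below that of all genes (7.38%), encode core subunits. Whether core subunits differ from the others in footprints was not tested. Ndufs3 footprints were 98.69, 80.23 and 81.86 CPM in knockdown libraries, against 120.7, 141.1 and 143.9 CPM in scrambled libraries, a fall by 0.60 ± 0.16 on the log2 scale (SE, adjusted p = 0.00567, edgeR). Ndufs8 footprints were 118.8, 120.3 and 98.23 CPM in knockdown and 144.9, 183.7 and 149.5 CPM in scrambled libraries, a fall by 0.52 ± 0.15 (adjusted p = 0.0141). Neither gene's groups overlapped. All 7 core subunits had values below 0, among them Ndufs7 -0.42 (adjusted p = 0.052), Ndufv2 -0.41 (adjusted p = 0.118), Ndufv1 -0.39 (adjusted p = 0.0678) and Ndufs1 -0.23 (adjusted p = 0.399). Ndufv1 had 145, 140.4 and 159.6 CPM in knockdown and 235.8, 177 and 165.1 CPM in scrambled libraries. These libraries did not overlap, whereas Ndufs7 (116.8, 148.4 and 108.5 CPM in knockdown, 162.4, 177.7 and 141.1 CPM in scrambled libraries), Ndufv2 (101.2, 84.24 and 71.63 CPM in knockdown, 115.9, 140.1 and 77.59 CPM in scrambled libraries) and Ndufs1 (82.07, 80.23 and 66.51 CPM in knockdown, 101, 83.96 and 80.41 CPM in scrambled libraries) overlapped. The calls moved with single libraries: without knockdown replicate 3, 0 of 37 genes were called (Ndufs3 adjusted p = 0.0612, Ndufs8 adjusted p = 0.151), and Ndufs8 was not called without scrambled replicate 2 (adjusted p = 0.107) or by DESeq2 (adjusted p = 0.0559). Without scrambled replicate 3, 6 core subunits were called, with Ndufs7 (adjusted p = 0.0134), Ndufv1 (adjusted p = 0.0157) and Ndufv2 (adjusted p = 0.0113) among them. Without knockdown replicate 2, 4 genes were called, Ndufb9 and Ndufs7 besides Ndufs3 and Ndufs8. The shares of all genes called in these fits are not given here, so the counts have no background beside them.

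Accessory subunits had footprint values nearer to 0. The median footprint log2 fold change was -0.41 over the 7 core subunits, -0.18 over the 9 accessory subunits of the matrix arm and -0.14 over the 19 of the membrane arm, while the medians in RNA were -0.68, -0.61 and -0.60. No accessory subunit passed the test in footprints. The lowest was Ndufa11, a membrane-arm subunit at the contact with other respiratory complexes, with 75.02, 50.14 and 58.32 CPM in knockdown and 75.96, 75.57 and 124.1 CPM in scrambled libraries (-0.43 ± 0.19, adjusted p = 0.123, edgeR). The highest was Ndufc1, a small membrane-arm subunit, with 124.9, 130.4 and 118.7 CPM in knockdown and 100.1, 119.2 and 71.95 CPM in scrambled libraries (0.30 ± 0.16, adjusted p = 0.222). Ndufa1, with 115.3, 104.3 and 94.14 CPM in knockdown and 82.1, 102.4 and 112.9 CPM in scrambled libraries (0.12 ± 0.16, adjusted p = 0.678), and Ndufa12, with 262.3, 274.8 and 281.4 CPM in knockdown and 230.1, 205.9 and 345.6 CPM in scrambled libraries (0.10 ± 0.15, adjusted p = 0.713), came next. Libraries of Ndufc1, Ndufa1 and Ndufa12 overlapped between the shRNAs, and scrambled replicate 3 was the lowest library for Ndufc1 and the highest for Ndufa12. For Ndufa13, the gene with the largest fall in RNA, footprints were 191.3, 176.5 and 177 CPM in knockdown and 241, 222.3 and 222.9 CPM in scrambled libraries, which did not overlap (-0.33 ± 0.13, adjusted p = 0.0917).

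**Figure D3:**
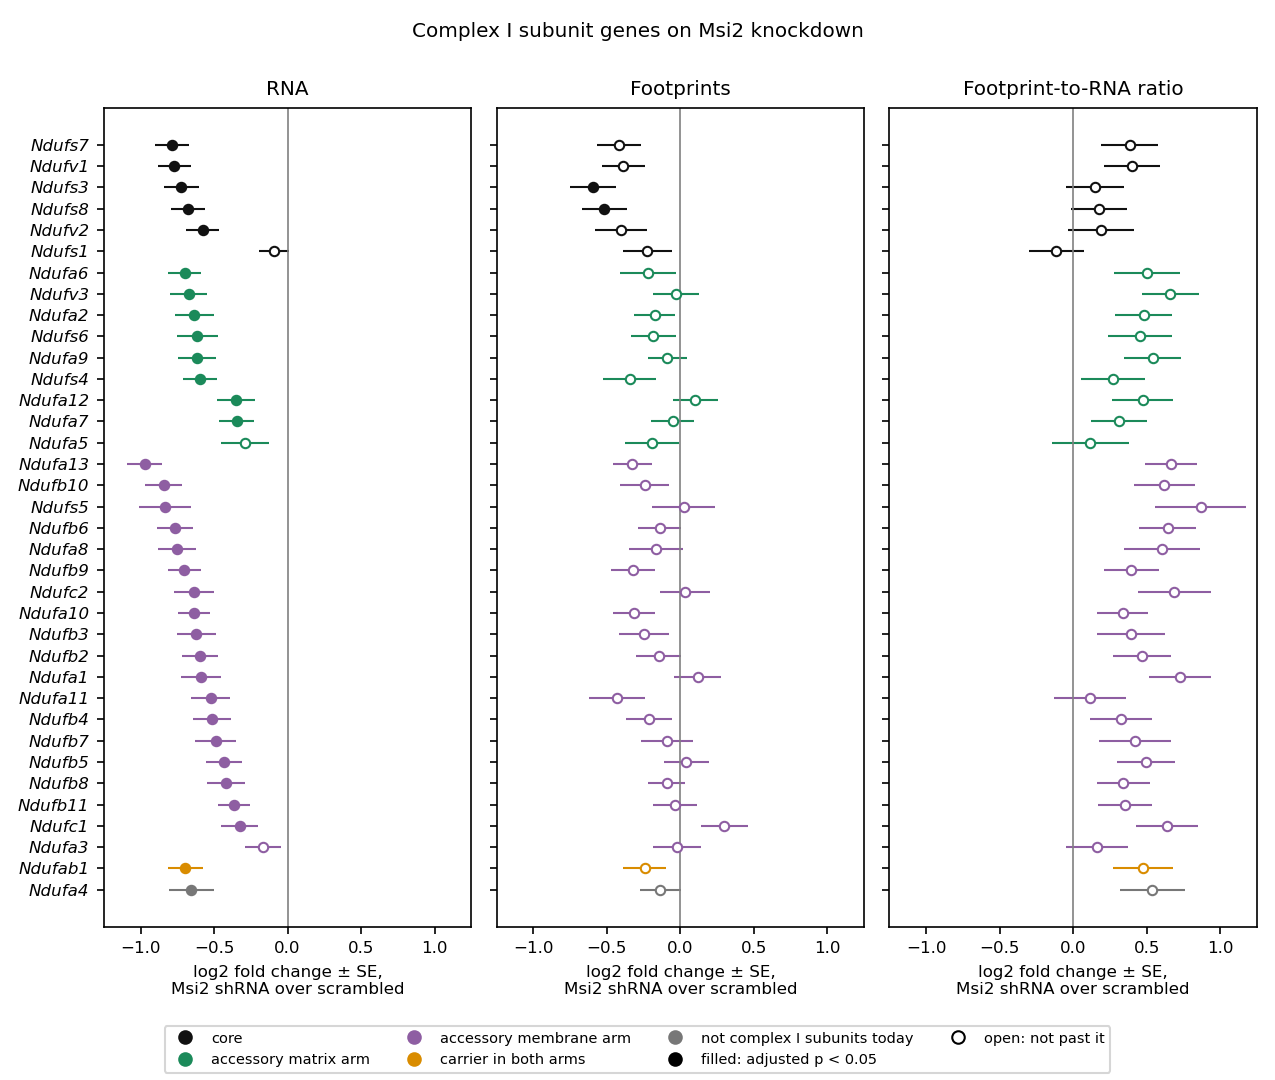
Log2 fold change, Msi2 shRNA over scrambled shRNA, with its SE, for 36 of the 37 tested genes in RNA (left), footprints (middle) and the footprint-to-RNA ratio (right), ordered by role and colored by it, with filled points for an adjusted p under 0.05 (edgeR). RNA has 33 filled points, all below 0, footprints have 2, Ndufs3 and Ndufs8, and the ratio has 0, with 35 of 36 points above 0.

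The footprint-to-RNA ratio, also called translational efficiency, was tested as the interaction of assay and shRNA in 1 model over all 12 libraries. None of the 37 genes passed it (0 higher, 0 lower at an adjusted threshold of 0.05, edgeR), where 0.129% of all 10821 genes tested were higher and 0.0739% lower. At an unadjusted p under 0.05 there were 20 of the 37 genes, against 1300 of the 10821. The log2 change of the ratio was above 0 for 36 of the 37 genes, against 51.8% of all genes, with a median of 0.42 for the subunits and 0.0172 for all genes. With 1 library left out, 32 to 36 genes lay above 0, and 5 turned sign in at least 1 such fit. The median kept its sign without each of the 12 libraries and lay between 0.25, without RNA scrambled replicate 2, and 0.48, without footprint knockdown replicate 2. Since the ratio holds the RNA values, these numbers are the same RNA and footprint differences seen together, not a further measurement.

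Ndufa13 had the smallest p in the ratio, with a log2 change of 0.66 ± 0.18 (adjusted p = 0.126, edgeR), followed by Ndufa1, with 0.73 ± 0.21 (adjusted p = 0.143), and Ndufv3, with 0.66 ± 0.19 (adjusted p = 0.143). Ndufa1 RNA was 50.1, 42.7 and 46.47 CPM in knockdown and 78.08, 75.8 and 54.89 CPM in scrambled libraries, without overlap, beside the footprints given above, which overlapped. DESeq2 called 1 gene, Ndufa13 (0.61, adjusted p = 0.0301). In a fit added after the data were seen, with a block for each RNA and footprint library of the same shRNA and number, edgeR called 9 of the 37 genes higher, Ndufa13 (adjusted p = 0.00633) and Ndufa1 (adjusted p = 0.0228) among them, and 353 of all 10821 genes in either direction. The labels do not say that these libraries came from the same cells. Without RNA scrambled replicate 3, edgeR called 4 genes: Ndufa1 (adjusted p = 0.0264), Ndufa13 (adjusted p = 0.0239), Ndufb6 (adjusted p = 0.0385) and Ndufs5 (adjusted p = 0.0432). The share of all genes called in that fit is not given here. The core subunits had the smallest ratio changes, with a median of 0.19, against 0.47 for the accessory subunits of either arm, and Ndufs1 had the only value below 0 (-0.11 ± 0.19, adjusted p = 0.866). The difference between core and accessory subunits was not tested.

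Footprint CPM divided by RNA CPM had a median over the 37 genes of 1.28 in knockdown and 0.99 in scrambled cells, against 1.13 in knockdown and 1.1 in scrambled cells over 10710 genes. The ratio was above 1 for 29 of the 37 subunit genes in knockdown and for 17 in scrambled cells. Of the 10710 genes, 6086 were above 1 in knockdown and 5980 in scrambled cells. RNA and footprints were scaled separately, so a ratio of 1 marks no absolute level. Ndufc1 had the highest ratio under both shRNAs, 3.04 in knockdown and 1.89 in scrambled cells, and Ndufa6 the lowest, 0.63 in knockdown and 0.483 in scrambled cells. The SD of the log2 ratio between genes was 0.52 in knockdown and 0.411 in scrambled cells over the 37 subunit genes, against 1.32 in knockdown and 1.35 in scrambled cells over all genes. All genes include those with few counts, and the sets were not matched for abundance.

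**Figure D4:**
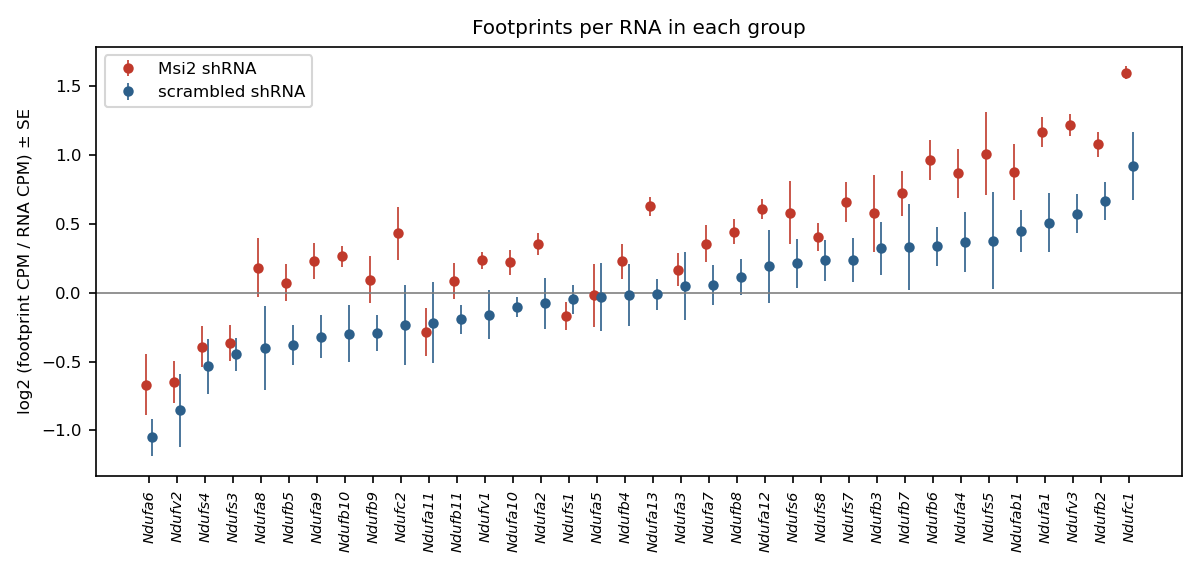
Footprints per RNA in each group: log2 of footprint CPM over RNA CPM for 36 genes, ordered by the scrambled value, red for Msi2 shRNA (left of each pair) and blue for scrambled shRNA, with bars for the SE from 3 footprint and 3 RNA libraries. Genes run from Ndufa6 to Ndufc1, and most red points stand above the blue point beside them, from 0.63 in knockdown and 0.483 in scrambled cells for Ndufa6 to 3.04 in knockdown and 1.89 in scrambled cells for Ndufc1.

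Set against each other, the RNA and footprint log2 fold changes had a Pearson's r of 0.411 and a Spearman's rho of 0.413 over the 37 genes, and 0.741 and 0.656 over the 8918 genes tested in both assays. These are descriptions across genes that share libraries, and genes are not independent replicates. The RNA change was larger in size than the footprint change in 36 of 37 subunit genes and in 5182 of all 8918. Against the log10 of genomic span, the RNA log2 fold change had an r of 0.0875 and a rho of 0.0929 over the subunit genes, against 0.194 and 0.238 over 10415 genes, and the footprint log2 fold change an r of -0.2 and a rho of -0.175 over the subunit genes. Against average log2 CPM, the RNA log2 fold change of the subunit genes had an r of -0.0202 and a rho of -0.0413.

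**Figure D5:**
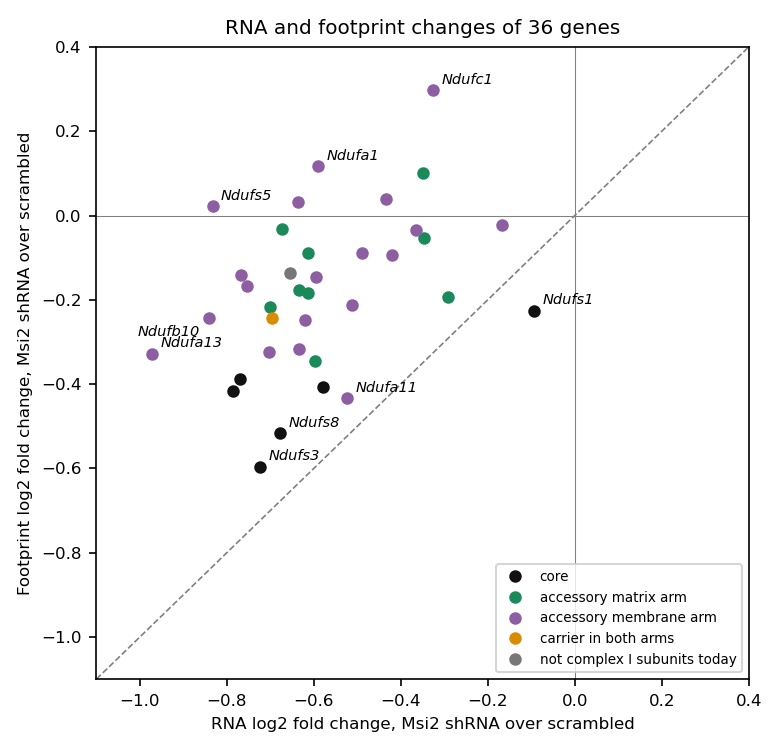
RNA log2 fold change (x axis) against footprint log2 fold change (y axis), Msi2 shRNA over scrambled shRNA, for 36 genes colored by role, with a dashed line where both are equal. Every gene but Ndufs1 lies above the line, and the other core subunits (black) lie among the lowest in footprints.

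Genes that work with complex I were counted in the same fits. Among all genes tested, 21.7% fell and 22.0% rose in RNA, and 7.38% fell and 8.76% rose in footprints. In the ratio, 0.0739% fell and 0.129% rose. Of 16 complex I assembly factors tested, 12 fell and 0 rose in RNA (median -0.44), and in footprints 1 fell, Tmem70, which assembles the membrane arm (-0.67 ± 0.21, adjusted p = 0.0259, edgeR). The ratio of the assembly factor Timmdc1 rose, by 1.13 ± 0.24 (adjusted p = 0.0382). Its RNA was 39.08, 43.34 and 40.88 CPM in knockdown and 72.8, 67.72 and 65.77 CPM in scrambled libraries, and its footprints were 27.19, 22.06 and 28.65 CPM in knockdown and 19.76, 19.82 and 25.39 CPM in scrambled libraries. Its RNA fell by 0.74 ± 0.11 (adjusted p = 6.9e-05), and its footprint libraries overlapped (0.36 ± 0.24, adjusted p = 0.35). Of 41 tested genes named for complexes II to V, 30 fell and 0 rose in RNA (median -0.51), and the ratio had a median of 0.45 with 0 called. In footprints (median -0.11) 5 of them fell, Sdhb (-0.45), Uqcrc1 (-0.60), Cox5b (-0.40), Atp5g1 (-0.37) and Atp5s (-1.48), and Atp5k rose (0.66). Of 76 mitochondrial ribosomal protein genes, 59 fell and 1, Mrpl42, rose in RNA (median -0.48). Their footprints had a median of -0.15, with falls of Mrpl2, Mrpl23, Mrpl24, Mrps14 and Mrps34 and rises of Mrpl33 and Mrps11, and the ratio rose for Mrpl21 (0.87, adjusted p = 0.0496). The complex I values thus lay beside those of other nuclear-encoded mitochondrial machinery, and a difference between the lists was not tested. Of 10 markers of mitochondrial mass and import, 7 fell and 0 rose in RNA (median -0.40), and the chaperone Hspa9 (-0.63) and the outer-membrane channel Vdac3 (-0.71) fell in footprints (list median 0.10). Of 5 antioxidant and matrix genes, the peroxiredoxin Prdx5 (-1.14), the superoxide dismutase Sod2 (-0.57) and the thioredoxin Txn2 (-0.31) fell in RNA and the transhydrogenase Nnt rose (0.61), and in footprints Prdx5 fell (-0.89) and Nnt rose (0.97).

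Of known regulators of nuclear genes for respiration, the coactivator Ppargc1a was at 0 in all 12 libraries, and of the 11 other genes listed 1 rose and 2 fell in RNA, where 22.0% of all genes rose and 21.7% fell. Pprc1, a coactivator related to Ppargc1a, had 228.8, 219.4 and 238.6 CPM in knockdown and 150, 191.7 and 163.5 CPM in scrambled libraries, and rose by 0.44 ± 0.12 on the log2 scale (adjusted p = 0.00613, edgeR). Tfb1m, which methylates mitochondrial ribosomal RNA, had 3.64, 4.97 and 3.57 CPM in knockdown and 10.5, 9.91 and 10.1 CPM in scrambled libraries, and fell by 1.34 ± 0.20 (adjusted p = 8.56e-05). Esrra, the estrogen-related receptor alpha, fell by 0.36 ± 0.13 (adjusted p = 0.029), with knockdown values of 56.54, 45.34 and 58.18 CPM and scrambled values of 76.23, 59.73 and 70.22 CPM. All 3 genes had libraries that did not overlap, but so did Nrf1, Tfam, Ppargc1b and Tfb2m, none of which passed the test. For 26.2% of all genes tested in RNA, every knockdown library lay below every scrambled library. The transcription factors Nrf1 (-0.20, adjusted p = 0.17), Gabpa (0.22, adjusted p = 0.266) and Yy1 (-0.08, adjusted p = 0.648), the mitochondrial DNA packaging factor Tfam (-0.30, adjusted p = 0.0625) and the coactivator Ppargc1b (-0.62, adjusted p = 0.052) did not pass the test. None of the 11 genes passed it in footprints, where 8.76% of all genes rose and 7.38% fell.

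Promoters of the subunit genes were searched for the letters bound by these factors, because the genes' RNA moved together. RefSeq's GRCm38.p6 promoter table, with 250 bases before to 50 after each start site, matched 33 of the 38 genes, and Ndufa2, Ndufa4l2, Ndufb9 and Ndufs1 were among those with no entry used here. The NRF1 core TGCGCA, which reads the same on both strands, was in 10 of the 33 genes (30.3%), in 8.79% of all 27025 genes of the table and in 16.6% of 8426 genes tested in RNA. The YY1 letters AAGATGG, on either strand, were in 7 of 33 (21.2%), in 7.28% of all genes and in 8.66% of tested genes. The ETS-family letters CCGGAAG, on either strand and shared by GABPA, were in 4 of 33 (12.1%), in 9.93% of all genes and in 21.4% of tested genes, and the estrogen-related receptor letters AAGGTCA, on either strand, were in 3 of 33 (9.09%), in 5.38% of all genes and in 3.63% of tested genes. A match is a description of letters, not a bound site.

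The windows that follow show the searched letters in capitals with flanking bases, 5' to 3' on the strand that carries them, for genes at both ends of the RNA range. Ndufb10 and Ndufs5 had the largest falls after Ndufa13, and Ndufa5 did not pass the test. All 3 hold the NRF1 core, at chr17:24724421-24724426, chr4:123718280-123718285 and chr6:24527712-24527717.
Ndufb10: gtcacctttcTGCGCAggcgtagagg
Ndufs5: ggctgcttgcTGCGCAggcgcagacc
Ndufa5: ttgtgtgagcTGCGCAggcgcaaatc
Ndufs7, with the largest fall among the core subunits, Ndufc1, with the smallest fall that passed, and Ndufa3, which did not pass, hold the YY1 letters, at chr10:80249473-80249479, chr3:51408927-51408933 and chr7:3617395-3617401.
Ndufs7: ggccgaggccAAGATGGcggcgctggc
Ndufc1: cctgcggaacAAGATGGcgccgtccgt
Ndufa3: cgccaagaacAAGATGGccgggagtaa
The ETS letters are shown for the genes that fell in footprints, Ndufs3 on the gene's own strand at chr2:90904742-90904748 and Ndufs8 on the opposite strand at chr19:3912753-3912759. The other genes with the letters, Ndufb6 (-0.14, adjusted p = 0.579, edgeR) and Ndufb7 (-0.09, adjusted p = 0.789), did not pass the footprint test.
Ndufs3: ccgcgtccgcCCGGAAGaagagtcact
Ndufs8: tgcggttcaaCCGGAAGgcggagccta

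In all 7 genes with the YY1 letters, the match was on the gene's own strand and began 23 to 39 bases after a start site used for the promoters. For Ndufs7 and Ndufa3 that start site lies downstream of the first base of the gene position given above. The letters include ATG, the bases of a start codon, and whether the matches lie at start codons was not tested. Over the 8426 tested genes, 5.51% had the letters on the gene strand, and 1.93% had them beginning 20 to 44 bases after the start site, a range chosen after the subunits' positions were seen. The differences between genes with and without a motif were not tested. Of 10 genes with the NRF1 core 9 fell (median -0.66), and of the 23 without it 22 fell (median -0.60). With the YY1 letters 6 of 7 fell (median -0.60), and without them 25 of 26 (median -0.64). With the ETS letters 4 of 4 fell (median -0.70), and without them 27 of 29 (median -0.61). With the estrogen-related receptor letters 3 of 3 fell (median -0.60), and without them 28 of 30 (median -0.62). In footprints, 2 of 4 genes with the ETS letters fell (median -0.33), and 0 of 29 without them (median -0.17). These 2 are the only subunit genes called in footprints (5.41%, against 7.38% of all genes tested). Both calls were lost without footprint knockdown replicate 3, and the ETS windows above were picked for these calls. For the other motifs 0 genes with the letters fell in footprints, of 10 for NRF1 (median -0.18), 7 for YY1 (median -0.09) and 3 for the estrogen-related receptors (median -0.15).

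Msi2 crosslinking was listed at 1 of the 38 genes. The deposited list of 3' UTR regions names 1161 of the 20572 genes of the count tables (5.64%), and 1148 of the 11117 genes tested in RNA (10.3%), and of the complex I genes it names Ndufc2, a membrane-arm subunit (1 of 38, 2.63%). The region, chr7:97407723-97407800 on the plus strand (mm10), is 78 bases long and ends at the last base of the gene in RefSeq's GRCm38.p6 annotation, with its summit 21 bases before that end. Its height, the authors' own value for the region, was 13, at the 34.1 percentile of the list, whose median height was 16. It held 0 reads with undiluted RNase, 2 reads at 1 in 50 and 3 reads at 1 in 75. With RNase diluted 1 in 20 it held 6 reads in the library labelled Low MW and 2 in that labelled Hi MW. Reads came from 4 of the 5 libraries, and with a minimum height of 20 no complex I gene was left. The other 37 genes are not named in the 3' UTR list. The list of all regions was matched by overlap with gene positions on either strand, not by name, and it also held 1 complex I gene. CLIP reads also depend on how abundant a gene's RNA is, which was not corrected for, and no input library was analysed here.

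Ndufc2 (chr7:97400003-97407800) did not stand apart from the other subunits in RNA. It had 88.87, 70.66 and 83.86 CPM in knockdown libraries, against 130.9, 147 and 99.6 CPM in scrambled libraries, and fell by 0.64 ± 0.14 on the log2 scale (adjusted p = 0.00132, edgeR). Its footprints were 133.9, 90.26 and 104.4 CPM in knockdown and 132.6, 112.2 and 76.18 CPM in scrambled libraries. These footprint libraries overlapped (0.03 ± 0.17 on the log2 scale, adjusted p = 0.926). Its ratio had a log2 change of 0.69 ± 0.25 (adjusted p = 0.252).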

How the data were processed

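The authors deposited counts per gene for both assays. The submitters' processing notes name TopHat, HTSeq and DESeq for them, and mm10 as the build, without versions. In the RNA table, lines for reads with no gene (32.3 to 35.2% of a library's total), several alignments or ambiguous assignment stayed out of library sizes and tests. The deposited CLIP lists give a signal for each region, its peak height, beside read counts by library. The submitters' processing notes name cutadapt and Novoalign for CLIP, and the peak caller is not given in the sources used here.

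Counts were scaled by TMM and tested with edgeR 4.0.16 in R 4.3.3 (quasi-likelihood, robust, filterByExpr with a minimum count of 10 and total of 15), 3 knockdown against 3 scrambled libraries per assay, and the ratio as an interaction over 12 libraries. P-values were adjusted by Benjamini-Hochberg over all genes tested. CPM values are TMM-scaled, and SE is the log2 fold change over the square root of F. The fits were tested on simulated data. Alternatives were DESeq2 1.42.0, upper-quartile factors, other filters, the replicate number as a block (within each assay and, for the ratio, across assays), removal of the trend with genomic span, and leaving out each library. No 2 libraries of a group agreed within sampling noise.

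Complex I genes and comparison lists were chosen with earlier results of these data known. Genes named with every library's value are the core subunits (1 of the 7 is not reported here by name), the 3 largest and 3 smallest log2 fold changes in RNA and in footprints, the 2 smallest p in the ratio, the gene with a CLIP region, and Msi2. Values of the other genes named with every library (Timmdc1, Pprc1, Tfb1m, Esrra and the footprints of Ndufa13) and the called genes of the comparison lists were chosen after they were seen, as was the set of genes without copies in RefSeq. Positions and promoters are RefSeq's, on GRCm38.p6; levels were not compared between genes per length because coding lengths were not used here.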

Additional observations from a re-analysis of the deposited data

How the results depend on the processing

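The RNA result kept its direction and size: between 30 and 35 complex I genes fell under each other tool, scaling, filter, the replicate block and the span correction, and their median log2 fold change lay between -0.64 and -0.52. Leaving out 1 library gave 30 to 35 genes called and a median of -0.74 to -0.53. In footprints, 1 gene was called with DESeq2 and 4 with upper-quartile factors, and leaving out 1 library gave 0 to 6 genes called and a median of -0.29 to -0.13. For the ratio, 1 gene was called with DESeq2 and 9 with the replicate block across assays (added after the data were seen), and leaving out 1 library gave 0 to 4 genes called and a median of 0.25 to 0.48, a value added after the data were seen. At a minimum height of 20, 0 genes kept a CLIP region. With the trend of level with genomic span removed, Ndufa3 RNA turned to 0.0688, Ndufc1 and Ndufb11 were no longer called in RNA, and the medians were -0.52 in RNA, -0.14 in footprints and 0.29 in the ratio. Leaving out 1 library turned the sign of 10 of 37 genes in footprints, Ndufc2 (-0.165 to 0.196), Ndufa1 (-0.0164 to 0.189), Ndufa12 (-0.0465 to 0.319), Ndufa3, Ndufa7, Ndufb11, Ndufb5, Ndufb7, Ndufs5 and Ndufv3, and of 5 in the ratio, Ndufa11, Ndufa3, Ndufa5, Ndufs3 and Ndufv2, and the causes of these moves were not tested. Samples shared only their replicate numbers: same-numbered knockdown and scrambled libraries had correlated deviations of -0.32 to 0.08 in RNA and -0.00339 to 0.05 in footprints. Same-numbered RNA and footprint libraries, which the ratio fit treats as independent, correlated at 0.164, 0.124 and 0.00366 in knockdown and 0.15, 0.23 and 0.122 in scrambled cells. With the replicate block within each assay, 30 genes were called in RNA (Ndufa12, Ndufa7, Ndufb8 and Ndufc1 no longer), 2 in footprints and 0 in the ratio. Over all genes, footprint calls were 854 with DESeq2 and 1448 with edgeR, and ratio calls were 98 with DESeq2, 124 without a filter, 3 with the replicate block within assays, 353 with the block across assays and 22 in the edgeR fit reported. Calls over all genes with 1 library left out are not given here. Without a filter Ndufa4l2 was also called lower in RNA.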
